A study of Mus musculus with 8 samples.

Results

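The genes described here encode antioxidant defence enzymes, measured in cochleae of mice with and without miR-29a. They are Sod1, Sod2, Cat, Gpx1, Gpx3, Gpx4, Prdx1, Nqo1, Hmox1 and Gclc, 10 of the 21895 genes measured, and they were taken by gene symbol, with no rule on their values. All 10 were found, and all 10 were among the 14990 genes with a mean of at least 0.5 FPKM that entered the test. FPKM divides the sequenced fragments of a gene by its transcript length and by the mapped total of the library, so levels of different genes can be set side by side.

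The study asked how loss of miR-29a affects the cochlea, using mice that lack the gene in every cell (miR-29a-/-, on a C57BL/6 background) and wild-type mice (miR-29a WT). RNA of the cochlea was sequenced in 8 libraries, 4 of wild-type cochlea (WT1 to WT4) and 4 of knockout cochlea (KO1 to KO4), with no other treatment in either group. The age is 21 days in the series record and 2 months in the methods. The methods say that mice of both sexes were used, and the study's own account of these data covers 3 samples a group, where 4 libraries a group are analysed here. Nothing in the labels says that the libraries of a group came from separate animals, so p-values measure only the spread between these libraries, which may be technical.

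Cells make superoxide in mitochondria and through NADPH oxidases. Superoxide dismutases turn it into hydrogen peroxide, and catalase, glutathione peroxidases and peroxiredoxins remove the peroxide, the last 2 kinds at the expense of reduced glutathione or thioredoxin. A further group of genes, induced by the transcription factor Nrf2, supplies glutathione and detoxifies quinones and haem. In the inner ear these systems are known for protecting hair cells and the stria vascularis from noise, ototoxic drugs and ageing.

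The deleted miRNA is shown first, with its family, because the other members read the same target sites. The sequences are from RefSeq (GRCm38.p6), 5′ to 3′, with the seed, bases 2 to 8, in capitals, and miR-29a-3p lies at chr6:31062673-31062694 on the minus strand.
mmu-miR-29a-3p: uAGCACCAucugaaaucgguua
mmu-miR-29b-3p: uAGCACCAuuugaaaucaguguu
mmu-miR-29c-3p: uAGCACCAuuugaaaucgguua
All 3 share the seed AGCACCA, whose 7-base match in a transcript is TGGTGCT. Of the 10 antioxidant genes, 0 held this match in their longest annotated 3′-UTR, against 13.1% of the 20952 genes with a 3′-UTR. The 3′-UTRs of the 10 genes ran from 72 bases in Sod1 to 4963 bases in Sod2. No match says only that these letters are not in these sequences. The levels of miR-29a and of the other family members were not analysed here and gave no check of the genotype labels.

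Upstream of the genes, the core of the antioxidant response element, TGACNNNGC on either strand, was looked for from 250 bases before to 50 bases after the start, where Nrf2 with a small Maf partner can bind. It was in a promoter of 2 of the 8 antioxidant genes found in the promoter table, where Hmox1 and Gclc had no entry. Counted by promoter, 2 of the 11 promoters of these 8 genes held it, beside 12.4% of all 32851 promoters. The windows are shown because they place the core in a dismutase and a peroxiredoxin gene, on the strand of the gene, in GRCm38.p6 and with the core in capitals, which reads TGACNNNGC on the opposite strand.
Sod1, chr16:90220697-90220723: ccaaggtggGCGTGGTCAgactcaggc
Prdx1, chr4:116685457-116685483: agggaaagcGCTGAGTCAtcccccgta
The capitals lie from -56 to -48 of the RefSeq start of Sod1 and from -133 to -125 of the RefSeq start of Prdx1. These starts differ from the starts in the deposited gene coordinates given below. The Prdx1 core overlaps a TGANTCA sequence, the form of site that AP-1 factors bind. With an A after the core, 0 of the 11 promoters of these 8 genes held it, beside 3.04% of all promoters.

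The libraries were not all alike, and WT1 and WT3 lay at opposite ends. On the first principal component, which held 50.9% of the variance, WT1 was at -91.0 and WT3 at 82.0, with the other 6 libraries between them. The mean correlation of a library with its own group was 0.788 for WT1 and 0.854 to 0.950 for the others, and it was higher with the KO libraries than with its own group for WT1, WT2 and WT4. A single gene, Gm8797, took 7.09% of its summed FPKM, where the top gene took 1.72% to 3.26% elsewhere. Steps of 1 fragment in the lowest values, below 0.06 FPKM, implied about 21500000 to 26400000 mapped fragments a library, and by that estimate, at the length of its shortest coding transcript, every antioxidant gene had at least about 121 fragments in each library. All 16 listed markers of cochlear epithelium and lateral wall were detected in every library, with summed levels of 1605 to 2488 FPKM in WT and 1734 to 2196 FPKM in KO. Most of that sum was Coch, and the other 15 summed to 274 to 561 FPKM in WT and 301 to 457 FPKM in KO. The mean was higher in KO for 5 of the 16, and 1, Tectb, had an unadjusted limma p under 0.05, lower in KO. Where leaving out WT1 moved a fold change much, the value without it is given.

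The 10 genes spanned levels from about 6 to over 100 FPKM. By the median over 8 libraries the order was Gpx1 (126 FPKM), Sod1 (93.3 FPKM), Gpx3 (92.2 FPKM), Gpx4 (53.3 FPKM), Prdx1 (50.7 FPKM), Cat (30.1 FPKM), Sod2 (29.0 FPKM), Gclc (13.7 FPKM), Hmox1 (12.3 FPKM) and Nqo1 (5.85 FPKM). The ranges of all neighbours in this order overlapped. Within a library, Prdx1 was above Cat in 8 of 8 libraries, whereas Gpx1 was above Sod1 in only 4 and Cat above Sod2 in only 4. Gpx1 and Sod1 moved most in rank. Gpx1 was the most abundant of the 10 in KO1, KO2 and KO3 and the sixth in WT3, and Sod1 was the most abundant in WT4 and the sixth in WT1.

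The question of the comparison is whether loss of miR-29a moved these genes. None of them passed the test. With limma on log2(FPKM + 0.1), 0 of the 10 genes had an unadjusted p-value under 0.05, where 5.12% of all tested genes (767 of 14990) did, and 0 passed after Benjamini-Hochberg adjustment, where 0% of all genes did. The values of WT and KO libraries overlapped in all 10, and 3.5% of all tested genes had groups that do not overlap. The median log2 fold change of the 10 was 0.16, beside 0.10 over all tested genes, and 8 of 10 were above 0, as were 66.5% of all genes. Adjusted p-values of the 10 were 0.947 to 0.999. Of all called genes 90.1% were higher in KO, but 52.7% were after median-ratio scaling and 40.9% after quantile normalization, which moved the median of all genes to 0.00 and -0.04. Under both scalings 6 of the 10 antioxidant genes were above 0 and 0 were called. Median-ratio scaling called 5.1% of all tested genes, and quantile normalization called 925 of 14990.

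**Figure D1:**
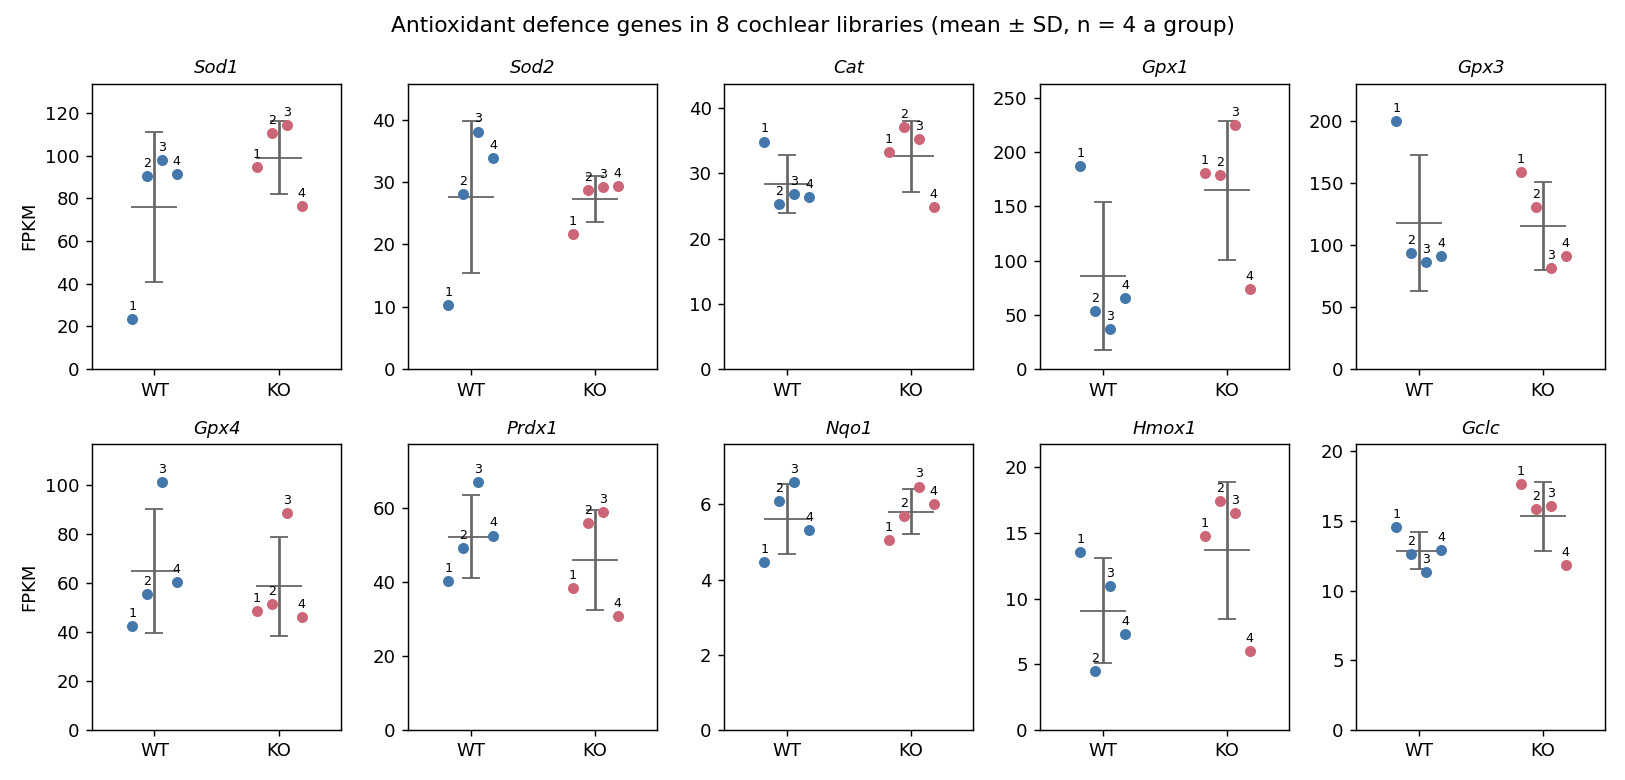
FPKM of the 10 antioxidant defence genes in each library (y axis, from 0), WT in blue and KO in red, with the replicate number at each point and the mean ± SD (n = 4) in grey. WT1 lies far below the other WT libraries in Sod1 and Sod2 and far above them in Gpx1 and Gpx3, and KO4 is the lowest KO library in Gpx1, Hmox1, Cat and Gclc.

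Sod1 is the copper and zinc dismutase of the cytosol and Sod2 the manganese dismutase of mitochondria. Sod1 (chr16:90220754-90226329) was at 23.5, 90.5, 98.0 and 91.7 FPKM in WT1 to WT4 and at 94.9, 111, 114 and 76.6 FPKM in KO1 to KO4. WT1 was below every other library, and the other 3 WT libraries lay within the KO range. KO exceeded WT by a log2 fold change of 0.57 (SE 0.44, 95% interval -0.44 to 1.57, unadjusted limma p = 0.235, exact permutation p = 0.371), which did not pass the test, and without WT1 it was 0.07.

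Sod2 (chr17:13006846-13040063) was at 10.3, 28.0, 38.1 and 33.9 FPKM in WT1 to WT4 and at 21.7, 28.8, 29.2 and 29.4 FPKM in KO1 to KO4. WT1 was again the lowest library, and WT3 and WT4 were above all KO libraries. Its log2 fold change was 0.13 (SE 0.38, 95% interval -0.74 to 1.0, unadjusted limma p = 0.742, exact permutation p = 0.914) and turned to -0.29 without WT1 (adjusted p = 0.339). Of the 50-base words in Sod2 transcripts, 21.0% also occur in another annotated gene, so its reads could have been split.

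Side by side, Sod1 was 2.29 to 3.23 times Sod2 in the WT libraries and 2.61 to 4.37 times Sod2 in the KO libraries. KO1, KO2 and KO3 had the highest ratios of the 8 libraries, at 3.84 to 4.37, and KO4 lay within the WT range at 2.61. The exact permutation test gave p = 0.0857, and p = 0.143 adjusted over the 5 ratios of gene pairs computed, which were chosen after the values had been seen.

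Among the peroxide-removing enzymes, Gpx1 had the largest difference of the 10 genes. It encodes the cytosolic and mitochondrial glutathione peroxidase, a selenoprotein that is also abundant in red blood cells. Gpx1 (chr9:108338903-108340343) was at 187, 53.6, 36.7 and 65.3 FPKM in WT1 to WT4, and at 181, 179, 226 and 73.9 FPKM in KO1 to KO4. KO1, KO2, KO3 and WT1 lay between 179 and 226 FPKM, and the remaining 4 libraries between 36.7 and 73.9 FPKM. The group means were 85.7 ± 68.6 FPKM in WT and 165 ± 64.3 FPKM in KO (SD, n = 4).

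For Gpx1 the difference was 1.12 on the log2 scale (SE 0.53, 95% interval -0.08 to 2.32), a 2.17-fold higher level in KO. It did not pass the test (unadjusted limma p = 0.0637, adjusted p = 0.947, exact two-sided permutation p = 0.114, where the smallest p that 4 against 4 libraries can give is 0.0286). Without WT1 the log2 fold change was 1.59, with an unadjusted limma p under 0.05 but an adjusted p = 0.145, and 19.5% of all tested genes were then called unadjusted. Without KO4 it was 1.47 (adjusted p = 0.798) and in the libraries numbered 1 to 3 it was 1.43 (adjusted p = 0.981), both past the unadjusted threshold, as were 5.8% and 4.51% of all tested genes.

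Cat encodes catalase, the haem enzyme of peroxisomes that splits hydrogen peroxide, and it too is abundant in red blood cells. Cat (chr2:103453849-103485160) was at 34.9, 25.4, 26.8 and 26.3 FPKM in WT1 to WT4 and at 33.4, 37.1, 35.3 and 24.8 FPKM in KO1 to KO4. The 3 WT libraries other than WT1 lay together, 1 KO library lay with them, and the other 3 KO libraries lay with WT1. Its log2 fold change was 0.20 (SE 0.17, 95% interval -0.19 to 0.59, unadjusted limma p = 0.279, exact permutation p = 0.371), and 0.30 without WT1.

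Gpx3 encodes the secreted glutathione peroxidase of plasma. Gpx3 (chr11:54902453-54910377) was at 200, 93.4, 86.4 and 91.1 FPKM in WT1 to WT4 and at 159, 131, 81.3 and 91.0 FPKM in KO1 to KO4. WT1, KO1 and KO2 were high, and the other 5 libraries lay between 81.3 and 93.4 FPKM. On the log2 scale KO differed from WT by 0.01 (SE 0.33, 95% interval -0.73 to 0.76, unadjusted limma p = 0.966), the exact permutation test gave 1, and the difference was -0.09 after median-ratio scaling and 0.30 without WT1.

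Gpx3 exceeded Gpx1 1.07 to 2.35 times in the 4 WT libraries, and the ratio was 0.36 to 1.23 in the KO libraries. Gpx3 was thus the more abundant of the pair in every WT library and in KO4, and Gpx1 in KO1, KO2 and KO3. The exact permutation test gave p = 0.0571, and p = 0.143 adjusted over the same 5 ratios.

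Gpx4 encodes the peroxidase that reduces lipid hydroperoxides in membranes and so holds back ferroptosis, and Prdx1 encodes a cytosolic, thioredoxin-dependent peroxidase. Gpx4 (chr10:80047166-80059194) was at 42.2, 55.3, 101 and 60.2 FPKM in WT1 to WT4 and at 48.3, 51.2, 88.5 and 46.0 FPKM in KO1 to KO4. Prdx1 (chr4:116685544-116700822) was at 40.2, 49.0, 67.0 and 52.5 FPKM in WT1 to WT4 and at 38.3, 55.7, 58.7 and 30.8 FPKM in KO1 to KO4. For both genes WT3 was the highest library and KO3 the second highest.

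Gpx4 and Prdx1 were the only members of the 10 with a fitted value below 0. Gpx4 had a log2 fold change of -0.12 (SE 0.31, 95% interval -0.82 to 0.57, unadjusted limma p = 0.694, exact permutation p = 0.657). That of Prdx1 was -0.21 (SE 0.25, 95% interval -0.77 to 0.35, unadjusted limma p = 0.419, exact permutation p = 0.457). Gpx4 was 0.12 without WT3 and -0.30 without WT1, and Prdx1 was -0.33 without WT1. Of the 50-base words of Gpx4, 34.7% occur in another annotated gene, mostly the pseudogene Gpx4-ps2. The share was 8.29% in Prdx1, 3.42% in Sod1 and 0% in the 6 other genes, Sod2 aside.

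Nqo1, Hmox1 and Gclc are the textbook targets of Nrf2 among the 10. Nqo1 encodes a quinone reductase. Nqo1 (chr8:107388225-107403206) was at 4.48, 6.10, 6.61 and 5.31 FPKM in WT1 to WT4 and at 5.06, 5.69, 6.48 and 6.01 FPKM in KO1 to KO4. All KO values were inside the WT range, and the highest library was 1.48 times the lowest, the smallest such ratio of the 10, beside 6.14 times in Gpx1. Its log2 fold change was 0.06 (SE 0.17, 95% interval -0.34 to 0.45, unadjusted limma p = 0.756, exact permutation p = 0.743). It was -0.04 after median-ratio scaling and -0.05 without WT1.

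Hmox1 encodes haem oxygenase 1, which opens the haem ring and is strongly made by macrophages that recycle red blood cells. Hmox1 (chr8:75093621-75100589) was at 13.6, 4.47, 10.9 and 7.28 FPKM in WT1 to WT4 and at 14.7, 17.5, 16.5 and 6.01 FPKM in KO1 to KO4. KO1, KO2 and KO3 were above all WT libraries, and KO4 was below 3 of them. Hmox1 had a log2 fold change of 0.59 (SE 0.43, 95% interval -0.38 to 1.57, unadjusted limma p = 0.201, exact permutation p = 0.229). Without KO4 it was 0.95, past the unadjusted threshold (adjusted p = 0.837), and without WT1 it was 0.83 and not past it.

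Gclc encodes the catalytic subunit of glutamate-cysteine ligase, the rate-limiting enzyme of glutathione synthesis. Gclc (chr9:77754535-77794485) was at 14.6, 12.6, 11.3 and 12.9 FPKM in WT1 to WT4 and at 17.6, 15.9, 16.0 and 11.8 FPKM in KO1 to KO4. KO1, KO2 and KO3 were above all WT libraries, and KO4 was below all WT libraries but WT3. Gclc had a log2 fold change of 0.24 (SE 0.16, 95% interval -0.12 to 0.61, unadjusted limma p = 0.162, exact permutation p = 0.143). Without KO4 it was 0.36, past the unadjusted threshold (adjusted p = 0.846). Without KO4, 3 of the 10 genes thus had an unadjusted p under 0.05, beside 5.8% of all tested genes.

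**Figure D2:**
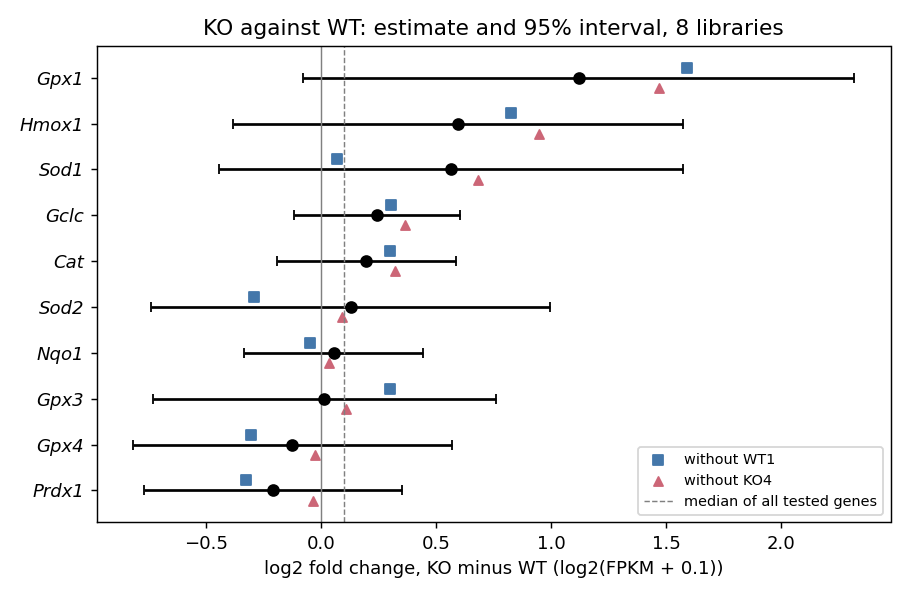
Log2 fold change of KO over WT for each gene (x axis, from limma on log2(FPKM + 0.1)), with the 95% interval from all 8 libraries as black points and bars, and the estimate without WT1 (blue squares) or without KO4 (red triangles). All 10 intervals include 0, the dashed line marks the median of all tested genes at 0.10, and Sod1 drops from 0.57 to 0.07 without WT1.

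Relative to their own means, Gpx1, Cat, Hmox1 and Gclc put the libraries in the same pair of sets. In each of these 4 genes, WT1, KO1, KO2 and KO3 were the 4 highest libraries. For Cat the 4 lay between 33.4 and 37.1 FPKM and the others between 24.8 and 26.8 FPKM, for Gclc between 14.6 and 17.6 FPKM and between 11.3 and 12.9 FPKM, and for Hmox1 between 13.6 and 17.5 FPKM and between 4.47 and 10.9 FPKM. Of all tested genes 10.5% (1575 of 14990) had the same 4 libraries on top. The order cuts across genotype, since WT1 fell with 3 KO libraries and KO4 with 3 WT libraries, and it was noticed in these values and not tested.

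**Figure D3:**
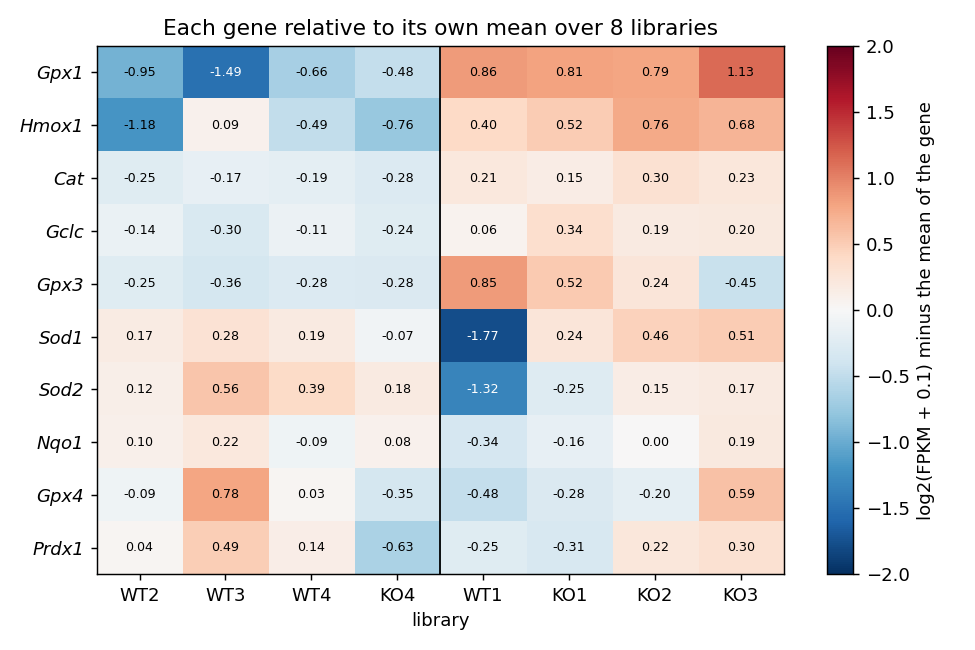
Log2(FPKM + 0.1) of each gene minus its mean over the 8 libraries (colour and printed value), with WT2, WT3, WT4 and KO4 to the left of the line and WT1, KO1, KO2 and KO3 to the right. Gpx1, Hmox1, Cat and Gclc, the top 4 rows, have their highest 4 values on the right in every case, while Sod1 and Sod2 are lowest in WT1.

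The other genes ordered the libraries differently. WT1 was the lowest library for Sod1, Sod2, Gpx4 and Nqo1 and the highest for Gpx3. WT3 and KO3 were the highest 2 libraries for Gpx4, Prdx1 and Nqo1. The 3 genes whose levels over the 8 libraries were most like the mean profile of the 10 were Pros1 (Pearson r = 0.989), Magt1 (r = 0.985) and Hspb1 (r = 0.975). These correlations describe 8 libraries that all the genes share.

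Markers of blood cells moved with the same libraries. The summed level of 10 erythroid markers (globins, Alas2, Slc4a1 and others) was 6572 to 12143 FPKM in WT1, KO1, KO2 and KO3 and 450 to 4917 FPKM in the other 4 libraries. By genotype it was 450 to 7504 FPKM in WT and 4917 to 12143 FPKM in KO. The mean was higher in KO for 10 of 10 erythroid markers, of which 2 had an unadjusted limma p under 0.05, and none was at 0 in any library.

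Macrophage markers summed to 132 to 166 FPKM in WT1, KO1, KO2 and KO3 and to 71.1 to 90.9 FPKM in the other 4 libraries, with a higher mean in KO for 10 of 10 markers, 1 with an unadjusted limma p under 0.05. By genotype the sums were 71.1 to 150 FPKM in WT and 78.0 to 166 FPKM in KO. C1qa was lowest in WT1 (15.6 FPKM), and Cx3cr1 was at 1.03 FPKM in WT1 and 1.56 to 1.89 FPKM in the other WT libraries. C1qa, Cx3cr1 and Aif1 did not have WT1, KO1, KO2 and KO3 on top, and the other listed macrophage markers did. Neutrophil markers summed to 2583 to 10639 FPKM in the same 4 libraries and to 75.6 to 1825 FPKM in the others. By genotype these were 75.6 to 10639 FPKM in WT and 1825 to 5491 FPKM in KO, with a higher mean in KO for 6 of 10 markers, and no macrophage or neutrophil marker was at 0 in any library. The 8 osteoblast markers summed to 111 to 680 FPKM in WT and 683 to 851 FPKM in KO (exact permutation p = 0.0286), with a higher mean in KO for 8 of 8, 1 with an unadjusted limma p under 0.05, and none at 0. These sums came close to touching, and they overlapped without the collagen gene Col1a1 (47.3 to 535 FPKM in WT and 265 to 427 FPKM in KO) and after median-ratio scaling. WT3 had the lowest erythroid, macrophage, neutrophil and osteoblast sums of the 8 libraries. The exact permutation test gave p = 0.0857 for the erythroid sum and p = 0.257 to 0.543 for the remaining marker lists. The osteoblast p was thus the smallest of all marker lists tested.

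The 10 skeletal muscle markers summed to 49.7 to 203 FPKM in WT and 87.8 to 609 FPKM in KO, with a higher mean in KO for 9 of 10, 2 with an unadjusted limma p under 0.05, and Tnnt3 at 0 in a library. Without Pvalb, which is also made by neurons, they summed to 1.27 to 13.9 FPKM in WT, 399 FPKM in KO3 and 4.13 to 57.2 FPKM in the other KO libraries. The 8 adipocyte markers summed to 1.97 to 35.5 FPKM in WT and 8.73 to 63.0 FPKM in KO, with a higher mean in KO for 7, 1 with an unadjusted limma p under 0.05, and Adipoq, Cidec, Lep and Ucp1 each at 0 in a library or more. The part of any of these cells in the levels of the 10 antioxidant genes was not tested. In RNA of a whole tissue, fewer cells of a type and less RNA per cell cannot be told apart.

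**Figure D4:**
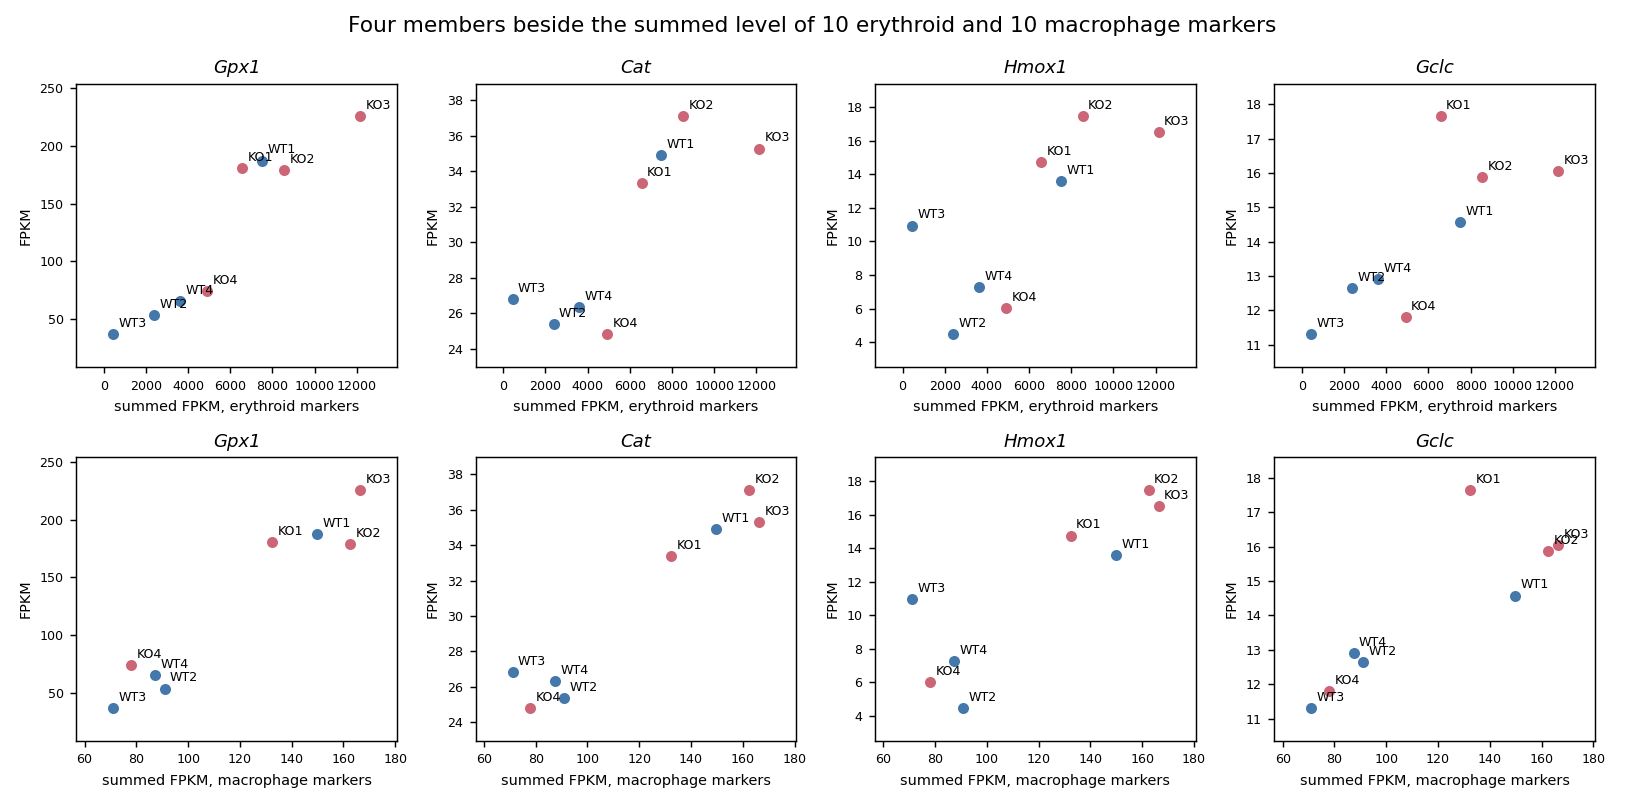
FPKM of Gpx1, Cat, Hmox1 and Gclc (y axes) against the summed FPKM of 10 erythroid markers (top row) and 10 macrophage markers (bottom row), 1 point per library, WT in blue and KO in red. In all 8 panels WT1, KO1, KO2 and KO3 lie to the upper right of the other 4 libraries.

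Other genes of the pathway were listed by function, without the 10 above. Of 95 listed genes 87 were tested, and 10 of them (11.5%) had an unadjusted limma p under 0.05, 9 higher and 1 lower in KO, beside 5.12% of all tested genes (4.61% higher and 0.507% lower). None passed after adjustment (0% of all genes did), with adjusted p-values of 0.922 to 0.993 for the genes named below. Groups did not overlap in 5 of the 87, beside 3.5% of all tested genes. The median log2 fold change of the 87 was 0.16, beside 0.10 over all tested genes. After median-ratio scaling 7 of the 87 had an unadjusted limma p under 0.05, 3 higher and 4 lower in KO. That scaling called 764 of all 14990 tested genes, 403 higher and 361 lower. After quantile normalization it was 9 of the 87, 4 higher and 5 lower, beside 925 of all 14990, 378 higher and 547 lower.

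Prdx5, a peroxiredoxin of mitochondria, peroxisomes and cytosol, was at 42.3, 41.1, 41.4 and 41.3 FPKM in WT1 to WT4 and at 52.6, 58.3, 63.0 and 63.5 FPKM in KO1 to KO4. All KO libraries lay above all WT libraries, WT1 and KO4 included. Its log2 fold change was 0.51 (SE 0.12, unadjusted limma p = 0.00203, adjusted p = 0.922, exact permutation p = 0.0286, the smallest possible). It was 1 of 9 tested genes of hydrogen peroxide removal, and the only 1 of them with an unadjusted p under 0.05.

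In the thioredoxin system 2 of 8 genes passed the unadjusted threshold, in opposite directions. Glrx, the cytosolic glutaredoxin that removes glutathione from proteins, was at 5.76, 6.67, 7.04 and 9.27 FPKM in WT1 to WT4 and at 4.94, 3.71, 4.67 and 4.05 FPKM in KO1 to KO4. All KO libraries were below all WT libraries, with a log2 fold change of -0.70 (SE 0.19, unadjusted limma p = 0.00513, adjusted p = 0.947, exact permutation p = 0.0286). Txnrd2, the mitochondrial thioredoxin reductase, was at 4.29 to 7.55 FPKM in WT and 6.79 to 11.5 FPKM in KO, with a log2 fold change of 0.63 (unadjusted limma p = 0.0311, exact permutation p = 0.0857), and it no longer passed after median-ratio scaling (0.53) or without WT1 (0.58).

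For glutathione synthesis and recycling, 3 of 10 genes passed the unadjusted threshold, all higher in KO. Gsr, the glutathione reductase, was at 11.5 to 32.1 FPKM in WT and 24.0 to 37.7 FPKM in KO (log2 fold change 0.82, unadjusted limma p = 0.0253, exact permutation p = 0.0857). Pgd, which makes NADPH in the pentose phosphate pathway, was at 24.0 to 42.0 FPKM in WT and 35.7 to 54.2 FPKM in KO (log2 fold change 0.52, unadjusted limma p = 0.0345, exact permutation p = 0.114). Gclm, the modifier subunit that pairs with Gclc, had a log2 fold change of 0.35 (unadjusted limma p = 0.0351, exact permutation p = 0.0571). Gclm was at 12.7, 10.6, 11.6 and 11.5 FPKM in WT1 to WT4 and at 15.9, 15.9, 16.0 and 12.0 FPKM in KO1 to KO4, so KO4 again lay in the WT range. Gclc was 0.973 to 1.19 times Gclm in every library, so the transcripts of the 2 subunits kept close to equal FPKM in both genotypes. After median-ratio scaling Gsr, Pgd and Gclm had log2 fold changes of 0.72, 0.42 and 0.25 and no longer passed the unadjusted threshold. Without WT1 they had log2 fold changes of 1.12, 0.69 and 0.40, all past it (adjusted p = 0.145, 0.145 and 0.178). In that fit 19.5% of all tested genes were past it. Without WT2, WT3, WT4, KO1 or KO3, none of Gsr, Pgd and Gclm was past the unadjusted threshold. Without KO2 only Gsr was past it, and without KO4 all of them were, beside 5.8% of all tested genes.

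Of the genes of haem, iron and quinone handling, 2 of 10 passed, both higher in KO. Blvrb, the biliverdin reductase and flavin reductase of red blood cells, was at 30.4, 13.0, 5.16 and 16.1 FPKM in WT1 to WT4 and at 39.8, 35.2, 41.6 and 16.8 FPKM in KO1 to KO4 (log2 fold change 1.22, unadjusted limma p = 0.0439, exact permutation p = 0.0571). Its 4 highest libraries were WT1, KO1, KO2 and KO3 and its lowest was WT3, as in the erythroid, macrophage and neutrophil sums given above. Of all tested genes 10.5% had the same 4 libraries on top, and the part of any cell type in the Blvrb level was not tested. Blvrb was no longer past the threshold after median-ratio scaling (log2 fold change 1.11). Without WT1 its log2 fold change was 1.60. Aldh2, the mitochondrial aldehyde dehydrogenase, was at 29.0 to 55.6 FPKM in WT and 52.7 to 81.9 FPKM in KO (log2 fold change 0.61, unadjusted limma p = 0.0267, exact permutation p = 0.0571). The log2 fold change of Aldh2 was 0.44 without WT1, and the gene was not past the threshold without WT3, KO2 or KO3.

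Among 8 regulators of Nrf2, 1 passed. Mafk, a small Maf protein that pairs with Nrf2 on DNA, was at 2.71, 5.66, 5.69 and 5.84 FPKM in WT1 to WT4 and at 8.35, 8.86, 9.92 and 7.13 FPKM in KO1 to KO4. All KO libraries were above all WT libraries, with a log2 fold change of 0.83 (SE 0.26, unadjusted limma p = 0.0127, adjusted p = 0.947, exact permutation p = 0.0286), and of 0.56 without WT1. Nfe2l2, the gene of Nrf2, and Keap1, the gene of its inhibitor, were looked at after their values had been seen. Nfe2l2 was at 48.8 FPKM in WT1 and at 15.7 to 27.1 FPKM in the other 7 libraries, and Keap1 at 4.52 FPKM in WT1 and 10.5 to 13.2 FPKM elsewhere. Their log2 fold changes were 0.04 (exact permutation p = 0.943) and 0.31 (exact permutation p = 0.686). Without WT1 they were 0.43, past the unadjusted threshold (adjusted p = 0.199), and -0.06. In that fit 19.5% of all tested genes were past the unadjusted threshold.

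For selenoprotein synthesis, on which the glutathione peroxidases depend, 1 of 8 genes passed. Sephs2, which makes the selenium donor, was at 10.8 to 12.3 FPKM in WT and 12.7 to 18.2 FPKM in KO, with groups that do not overlap (log2 fold change 0.37, unadjusted limma p = 0.0325, exact permutation p = 0.0286), and did not pass after median-ratio scaling (log2 fold change 0.27). None of the 21 glutathione transferases, 3 metallothioneins and 8 superoxide producers passed, nor did Sod3, the secreted dismutase, or Ccs, the copper chaperone of Sod1. The gene with the smallest p-value in each of these was Gsta4 (log2 fold change -0.39, adjusted p = 0.947), Mt2 (0.11, adjusted p = 0.983), Sod3 (0.39, adjusted p = 0.962, and 0.062 without WT1) and Nox4 (0.55, adjusted p = 0.947). Gsta4 passed the unadjusted threshold, lower in KO, after median-ratio scaling (-0.49, adjusted p = 0.895) and quantile normalization (-0.49, adjusted p = 0.789). It also passed without WT1 (-0.50, adjusted p = 0.171). Nox4 passed it, higher in KO, without KO4 (0.81, adjusted p = 0.798) and in the libraries numbered 1 to 3 (0.86, adjusted p = 0.981).

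The transferases had a median log2 fold change of -0.11, and 8 of 21 were above 0. The superoxide producers had a median of 0.68, and 7 of 8 were above 0, as were 66.5% of all tested genes. Without WT1 their median was 1.27 and 6 of 8 were above 0, beside 46.7% of all genes, and 5 were then past the unadjusted threshold higher in KO and 1 lower, where 19.5% of all tested genes were called. These include the subunits of the phagocyte NADPH oxidase, named here after their values had been seen. WT1 was the highest library for Cybb, the catalytic subunit, at 70.8 FPKM, where the other WT libraries were at 4.77 to 12.8 FPKM and the KO libraries at 22.1 to 38.8 FPKM. For Ncf1, the organizer subunit, WT1 was at 83.7 FPKM, the other WT libraries at 2.80 to 14.8 FPKM and the KO libraries at 25.1 to 47.3 FPKM. WT1 also had the highest neutrophil marker sum, 10639 FPKM, and what part neutrophils had in these levels was not tested. Without WT1 the log2 fold changes were 1.79 for Cybb and 2.10 for Ncf1 (adjusted p = 0.145 for both).

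**Figure D5:**
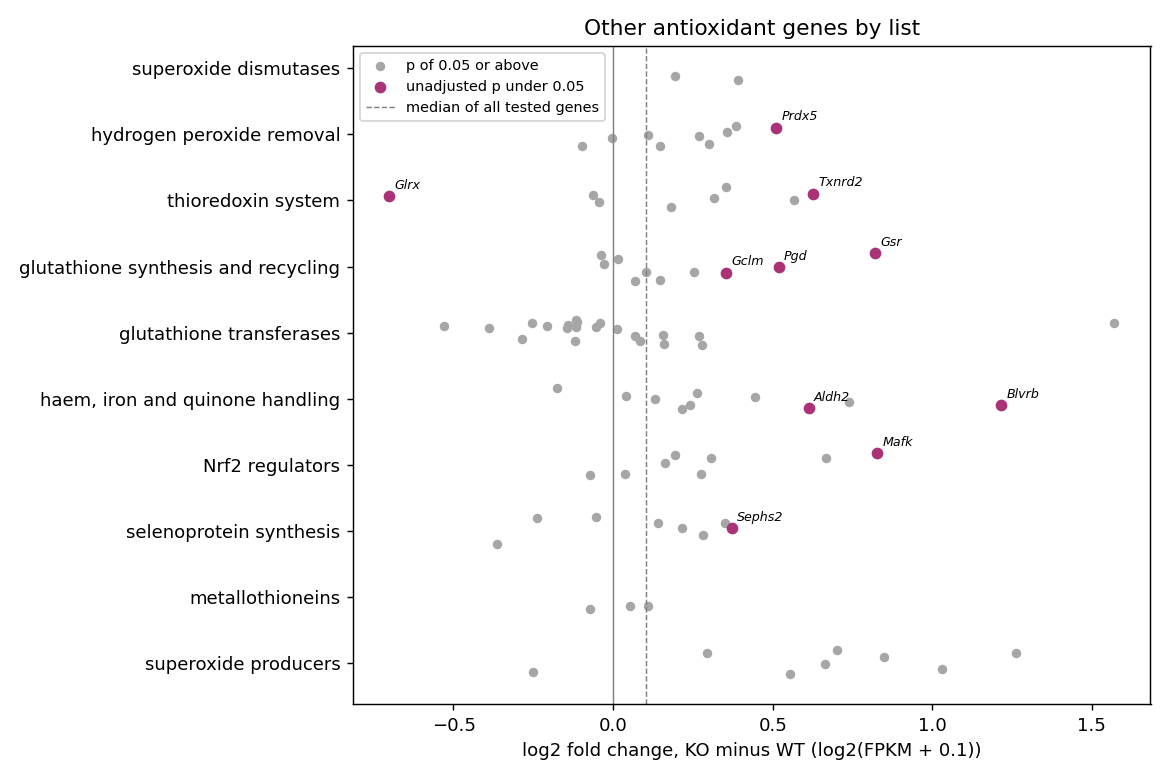
Log2 fold change of KO over WT (x axis, limma on log2(FPKM + 0.1)) for the 87 other tested genes of antioxidant pathways, 1 point per gene, by list; genes with an unadjusted p under 0.05 are coloured and named. Glrx is the only named gene below 0, and the dashed line is the median of all tested genes.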

How the data were processed

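RNA of the whole cochlea was measured in 8 libraries, 4 miR-29a WT and 4 miR-29a KO, grouped by the genotype in the sample labels. The authors made strand-specific libraries after removal of ribosomal RNA, mapped the read pairs with Hisat2, and deposited an FPKM table with 1 column for each library. The tool and annotation behind the deposited FPKM are not given in the sources used here. The submitters' processing notes name the build mm9, but the coordinates of 19771 of 21895 genes, and of 9 of the 10 antioxidant genes, equal those of GENCODE M21 on GRCm38. The end of Gpx4 differs and is given as deposited. Columns of the table left unused numbered 0. Read counts were not used here, and depth was estimated from steps of 1 fragment in low values. In each library 22.8% to 35.2% of those values lay within 0.05 (log2) of 1 fragment, so it is approximate, and intervals cover the spread between libraries only.

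Log2(FPKM + 0.1) of genes with a mean of at least 0.5 FPKM was fitted with limma 3.58.1 in R 4.3.3, with genotype as the only factor, moderated variances with a mean-variance trend and no further scaling. Tests were two-sided, with Benjamini-Hochberg adjustment over all 14990 tested genes, and the unadjusted threshold of 0.05 follows the study. A fold change on this scale understates that of low genes. Single genes were also compared by an exact permutation test. The fit was tested on simulated data. The study's own test on counts was not repeated.

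The 10 genes, the pathway lists and the marker lists were chosen with earlier results of these data known. Besides the 10, the text names every gene of a pathway list with an unadjusted p under 0.05 (at most 4 a list), or the gene with the smallest p where none passed, and the 3 genes most like the mean profile. Other pathway genes whose values are given beyond this rule are marked as chosen after their values were seen. Ccs, Gm8797 and single marker genes are also named beyond it, without such a mark. Alternatives were a pseudocount of 1, no filter, a minimum mean of 1 FPKM, median-ratio scaling, quantile normalization, no trend, the replicate number as a block, the libraries numbered 1 to 3 alone (since the study's own account covers 3 samples a group), and leaving out each library.

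Seed matches were sought in the longest annotated 3′-UTR of each gene (GENCODE M21), and promoter cores in the RefSeq windows (GRCm38.p6). Shared sequence is the share of a gene's 50-base transcript words found in another annotated gene.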

Additional observations from a re-analysis of the deposited data

Results flagged for a closer look

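In groups of 4 libraries, 1 library lay far from the other 3, by Dixon's criterion at 95%, in 8 of 62 groups screened, and 5 of the 8 were WT1. Chance alone gives such a library in about 5% of groups, and the genes and marker sums share their libraries. For Sod1, WT1 was at 23.5 FPKM and the other WT libraries at 90.5 to 98.0 FPKM. For Cat, WT1 was at 34.9 FPKM and the others at 25.4 to 26.8 FPKM. For Gpx3, WT1 was at 200.3 FPKM and the others at 86.4 to 93.4 FPKM. For Mafk, WT1 was at 2.71 FPKM and the others at 5.66 to 5.84 FPKM. The neutrophil marker sum was 10639 FPKM in WT1 and 75.6 to 982 FPKM in the other WT libraries.

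Among the KO libraries, Sod2 was at 21.7 FPKM in KO1 and 28.8 to 29.4 FPKM in the others. Gpx4 was at 88.5 FPKM in KO3 and 46.0 to 51.2 FPKM in the others. Gclm was at 12.0 FPKM in KO4 and 15.9 to 16.0 FPKM in the others.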

How the results depend on the processing

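Of the 10 antioxidant genes, 0 had an unadjusted limma p under 0.05 in the fit of 8 libraries, and none did under another pseudocount, filter, scaling or variance model. In the libraries numbered 1 to 3 the count was 1 (Gpx1), and leaving out each library gave 0 to 3, with 1 without WT1 (Gpx1) and 3 without KO4 (Gclc, Gpx1 and Hmox1). For the other pathway genes the 10 calls became 3 to 23 on leaving out a library. They were 23 without WT1, 5 without WT2, 5 without WT3, 6 without WT4, 4 without KO2 and 3 without KO3. For all tested genes the 767 calls became 347 to 2922, with 2922 without WT1, 377 without KO2 and 347 without KO3. After median-ratio scaling 4 of the 10 pathway genes kept their call, and after quantile normalization 5 did. Prdx5, Glrx and Mafk kept an unadjusted p under 0.05 in all 16 alternative fits, with largest values of 0.0240, 0.0413 and 0.0379. They had the smallest p-values of the other pathway genes in the fit of 8 libraries, and the alternatives reuse those libraries. Keeping the call is therefore no separate support.

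Some values near 0 changed sign. Gpx3 was -0.086 and -0.11 after median-ratio scaling and quantile normalization, and -0.16 to 0.30 on leaving out a library, below 0 without WT2, WT3, WT4, KO1 or KO2. Nqo1 was -0.044 and -0.082 under these scalings and -0.048 to 0.14 on leaving out a library, below 0 without WT1. On leaving out a library, Sod2 was -0.29 (without WT1) to 0.34, Gpx4 was -0.34 to 0.12 (without WT3), and Mt2 was -0.15 (without KO2) to 0.37. Mt2 was -0.027 after quantile normalization. The cause of these changes was not tested. The promoter core was found in 2 genes, and in 0 with an A after it.

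WT and KO libraries share only replicate numbers. Taken relative to its group mean, each KO library correlated with the WT library of its number at 0.419, -0.240, -0.170 and 0.210 for numbers 1 to 4, so the numbers were not taken to pair the libraries. With the replicate number as a block, 0 of the 10 antioxidant genes, 7 of the other pathway genes and 838 of all tested genes had an unadjusted limma p under 0.05. With 4 libraries a group and these intervals, differences of the size seen in Sod1, Hmox1 or Gpx1 were not separable from the spread.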
